A study of Mus musculus with 4 samples.

Results

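Transcription was compared between the libraries whose titles end in R and the libraries without that suffix, within each of the title stems CT26_102 and CT26_CTL, in CT26, a mouse colon carcinoma cell line. All 4 libraries of the series enter this comparison, as 2 matched pairs, and 11955 of the 55335 listed genes reached 1 FPKM (fragments scaled by transcript length and by library size) in at least 2 libraries and were tested. CT26_102 and CT26_CTL are labelled FOSL2-WT with PBS (control). CT26_102_R and CT26_CTL_R are labelled FOSL2-KO with chemoradiotherapy. The genotype label and the treatment label change together, so their parts in any difference cannot be told apart. The labels do not say what the stems or the suffix stand for, which agents or dose were given, or how many clones were used. The design text speaks of knockdown cells, and the label for time is blank. Whether the cultures were separate is not stated, and p-values then reflect only how far these samples spread, which may be technical.

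Ionising radiation and many cytotoxic drugs break DNA. The tumour suppressor p53 is then stabilised and switches on genes such as Mdm2, while genes of cell division are turned down. Damaged cells are also known to make interferons, chemokines and growth factors. FOSL2 is one of the FOS proteins, which pair with JUN proteins to form AP-1, a transcription factor induced by stress and growth signals. Its usual site has C or G in the middle of the letters TGANTCA, where N is any base.

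Fosl2 transcript went against the genotype label. Wherever 4 values are given, they run from CT26_102 and its partner CT26_102_R to CT26_CTL and its partner CT26_CTL_R. Fosl2 FPKM was 9.35, 16.0, 12.7 and 19.2. Each library with the knockout label thus held more Fosl2 than its partner (log2 difference 0.64 ± 0.13, SE of the paired fit, adjusted p = 0.0444), and the suffix R libraries are named below by their titles only. A transcript can persist when a knockout abolishes the protein, so this value checks the transcript alone. Mdm2, a p53 target whose product marks p53 for destruction, was 47.2, 486, 38.5 and 292 FPKM and rose in both pairs (3.11 ± 0.14, adjusted p = 0.00886).

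The labelled cell type was only partly borne out by its markers. Of 22 epithelial markers, 17 stayed under 1 FPKM in every library, and Epcam, Cdx1 and Cdx2 were listed at 0 in all 4. Krt18, a keratin of simple epithelia, was 34.7, 39.6, 42.5 and 76.5 FPKM, and Krt20, an intestinal keratin, was 27.3, 27.4, 24.5 and 36.8. Vim, the mesenchymal filament protein, was 782, 535, 640 and 503 FPKM. The growth label calls the cells mesenchymal. Cd3e was listed at 0 in all libraries and Ptprc, the pan-leukocyte marker, did not exceed 0.0880 FPKM. Between 11280 and 11904 genes reached 1 FPKM in a library.

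With the stem in the fit, 905 genes rose with suffix R (7.57% of the genes tested) and 636 fell (5.32%), together 12.9%. Rose and fell refer throughout to an adjusted p under 0.05 in this paired limma fit, and a log2 difference is a difference of log2(FPKM + 1) averaged over both pairs, which understates changes of genes with low values. The median gene that rose did so by 0.87, and 334 of them (36.9%) exceeded a doubling of FPKM + 1. The median gene that fell did so by -0.78, and 147 (23.1%) were below a log2 difference of -1. These calls rest on the pairing. Without the stem term, 1281 genes had an unadjusted p under 0.05 (10.7%) and 1 gene passed (0.00836%), the microRNA-annotated AC147560.1 at 41.0, 0.000117, 43.9 and 1.4e-05 FPKM (adjusted p = 0.0239). AC147560.1 was named after its values were seen. In the paired fit 4315 genes (36.1%) had an unadjusted p under 0.05. With 1 library left out no 2 pairs remain: 0 genes rose and 3 fell without CT26_102_R, 1 and 1 without CT26_CTL_R, 4 and 2 without CT26_102, and 9 and 2 without CT26_CTL. With no filter on low values 0 of 27670 genes passed in that paired fit and 4937 had an unadjusted p under 0.05.

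The balance of directions depended on scaling. Rising genes made up 58.7% of the calls as deposited. They made up 48.1% after upper-quartile rescaling (937 rose, 1011 fell) and 41.8% after setting equal FPKM sums (689 rose, 958 fell), which moved the median of all genes from 0.004 to -0.05 and -0.08.

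The 2 pairs moved in the same direction for 9238 genes (77.3%). A difference over 2 times in FPKM + 1 was seen for 841 genes (7.03%) in the pair CT26_102 and for 613 (5.13%) in the pair CT26_CTL. In both pairs, 204 genes (1.71%) were over 2 times higher and 82 (0.686%) over 2 times lower, and 23 (0.192%) were over 2 times apart with opposite signs. Agreement grew with expression level, as a description across genes that share 4 libraries and are not independent. In the fifth of genes with the lowest mean FPKM (0.558 to 2.42), 71.9% had the same sign and 7.07% were called. In the fifth with the highest (from 21.9 FPKM), 83.3% had the same sign and 21% were called.

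**Figure D1:**
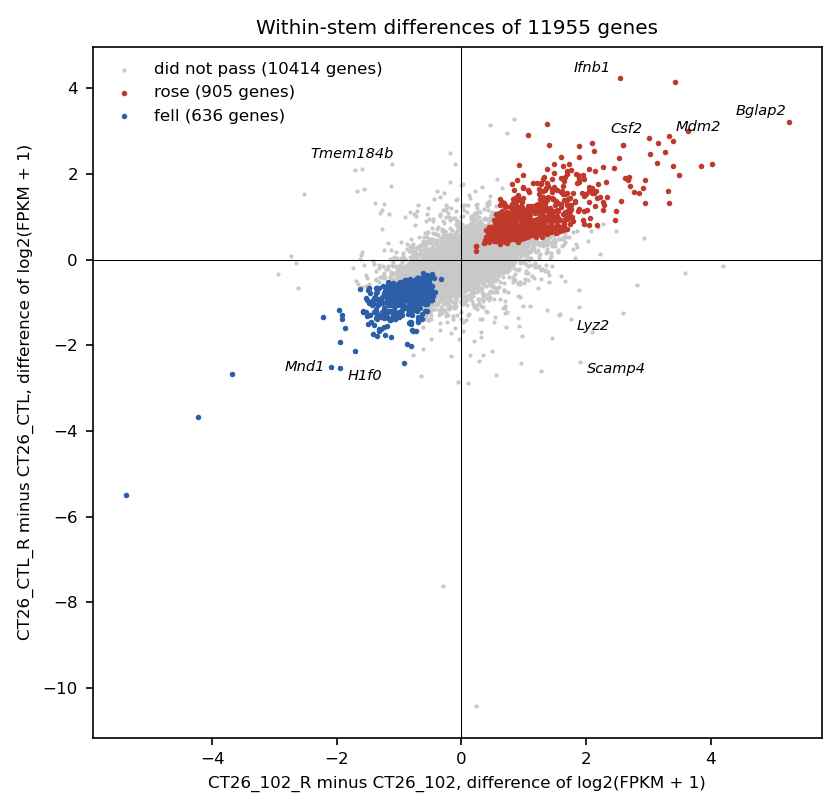
Within-stem differences of log2(FPKM + 1) for the 11955 tested genes, pair CT26_102 on the horizontal axis and pair CT26_CTL on the vertical axis; each point is a gene, and color gives the call of the paired fit. The 905 genes that rose lie at the upper right and the 636 that fell at the lower left, while Lyz2 and Scamp4 at the lower right and Tmem184b at the upper left moved in opposite directions.

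The p53 targets and the mitosis genes account for a small part of these calls. Of 80 tested p53 targets, 48 rose and none fell, with a median log2 difference of 0.94 against 0.004 for all tested genes. Of 119 mitosis and G2/M genes, 39 fell and 3 rose (median -0.42). Outside both lists, 854 of 11756 genes rose and 597 fell, and the text below is mainly about these. Lists below that share members with either list count those members too. Outside both, 12 zinc finger, 10 solute carrier and 4 cytochrome P450, aldehyde and aldo-keto genes rose.

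The 12 leading risers outside those lists include the osteocalcin copies Bglap2 and Bglap. Here and below, overlap between the groups is given for named genes only, most of them picked for large differences. How many of all tested genes do not overlap was not counted, so a lack of overlap marks no gene as special. Bglap2 (ENSMUSG00000074486, GRCm38 chr3:88377736-88378699, minus strand), a copy of the osteocalcin gene, was 0.706, 64.2, 0.615 and 14.1 FPKM, a log2 difference of 4.24 ± 0.47 (SE, n = 2 pairs, adjusted p = 0.0198). Bglap (ENSMUSG00000074483, chr3:88383501-88384464, minus strand), osteocalcin itself, was 0.172, 11.4, 0.0701 and 6.29 FPKM (3.08 ± 0.20, adjusted p = 0.0121). Both were under 1 FPKM in each library without the suffix, so they passed the filter only through the suffix R libraries. That their groups did not overlap follows from the filter and adds nothing. They are near-identical neighbours, so the split of reads between them is uncertain.

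Csf2 (ENSMUSG00000018916, chr11:54247271-54249667, minus strand) encodes the myeloid growth factor GM-CSF. It was 0.0578, 7.55, 4.36 and 37.4 FPKM (2.93 ± 0.14, adjusted p = 0.00886). Each suffix R library exceeded both libraries without it. Cxcl1 (ENSMUSG00000029380, chr5:90891241-90893115, plus strand), a neutrophil chemokine, was 0.963, 10.8, 11.1 and 77.0 FPKM (2.64 ± 0.13, adjusted p = 0.00886). CT26_102_R thus reached only the level of the untreated CT26_CTL, and the groups overlapped. Cxcl10 (ENSMUSG00000034855, chr5:92346638-92348889, minus strand), an interferon-induced T cell chemokine, was 2.02, 25.8, 21.5 and 106 FPKM (2.70 ± 0.23, adjusted p = 0.0174). Ifnb1 (ENSMUSG00000048806, chr4:88522025-88522774, minus strand) encodes interferon beta and was 0.0543, 5.17, 0.458 and 26.4 FPKM (3.39 ± 0.40, adjusted p = 0.0209). Like Bglap, Ifnb1 passed the filter only through the suffix R libraries, which fixed its direction. For these 4 genes the level with and without the suffix was higher in stem CT26_CTL.

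Marcksl1 (ENSMUSG00000047945, chr4:129513581-129515985, plus strand), which encodes an actin-associated substrate of protein kinase C, was 13.2, 136, 9.68 and 59.6 FPKM (2.89 ± 0.21, adjusted p = 0.0135). Cryab (ENSMUSG00000032060, chr9:50751325-50756636, plus strand), the small heat shock protein alpha-B crystallin, was 27.2, 229, 29.6 and 169 FPKM (2.75 ± 0.16, adjusted p = 0.0117). Neither overlapped between the groups, and both were among the most abundant of the leading risers. Ces2e (ENSMUSG00000031886, chr8:104926260-104934672, plus strand), a carboxylesterase, was 3.51, 63.6, 0.0963 and 4.0 FPKM (3.02 ± 0.39, adjusted p = 0.0240). Fam180a (ENSMUSG00000047420, chr6:35312668-35326141, minus strand) was 0.314, 12.9, 0.0236 and 3.66 FPKM (2.79 ± 0.31, adjusted p = 0.0198). Fam180a passed the filter only through the suffix R libraries, which fixed its direction. Crct1 (ENSMUSG00000027913, chr3:93014205-93015687, minus strand), a gene of the epidermal differentiation region, was 0.406, 21.8, 3.97 and 22.3 FPKM (3.12 ± 0.42, adjusted p = 0.0252). Ces2e and Fam180a were higher in stem CT26_102, while Crct1 ended at the same level in both. Gm28048, a model that spans Commd1 and B3gnt2, was 0, 7.91, 0.000214 and 5.65 FPKM. Its reads cannot be separated from those of the genes it spans, and its value is uncertain. It too passed the filter only through the suffix R libraries.

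The 12 leading genes that fell had log2 differences from -2.29 to -1.31. Mnd1 (ENSMUSG00000033752, chr3:84087933-84155786, minus strand), which works with HOP2 in DNA strand exchange, was 11, 1.80, 12.2 and 1.34 FPKM (-2.29 ± 0.16, adjusted p = 0.0134). H1f0 (ENSMUSG00000096210, chr15:79028450-79030504, plus strand), the linker histone of quiescent and differentiated cells, was 183, 46.5, 390 and 67.1 FPKM (-2.24 ± 0.16, adjusted p = 0.0135). The uncharacterised 3110082I17Rik (ENSMUSG00000053553, chr5:139359739-139460527, minus strand) was 8.93, 1.58, 9.81 and 1.87 FPKM (-1.93 ± 0.13, adjusted p = 0.0134). For all 3 both suffix R libraries lay below both others.

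Pdk1, Pck2, Clybl and Aldh16a1 encode metabolic enzymes. Pdk1 (ENSMUSG00000006494, chr2:71873224-71903858, plus strand), the kinase that switches off pyruvate dehydrogenase, was 17.4, 3.86, 12.5 and 4.2 FPKM (-1.65 ± 0.18, adjusted p = 0.0198). Pck2 (ENSMUSG00000040618, chr14:55540266-55551242, plus strand), mitochondrial phosphoenolpyruvate carboxykinase, was 16.4, 5.81, 20.3 and 7.88 FPKM (-1.31 ± 0.13, adjusted p = 0.0180). Clybl (ENSMUSG00000025545, chr14:122181704-122402234, plus strand), the citramalyl-CoA lyase of mitochondria, was 14.9, 5.21, 7.74 and 2.34 FPKM (-1.37 ± 0.13, adjusted p = 0.0179). Aldh16a1 (ENSMUSG00000007833, chr7:45140684-45154584, minus strand), of the aldehyde dehydrogenase family, was 7.69, 2.36, 6.36 and 1.86 FPKM (-1.37 ± 0.14, adjusted p = 0.0180). None of the 4 overlapped between the groups, which describes genes picked for large falls within both pairs.

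The remaining 5 have various roles. Glb1 (ENSMUSG00000045594, chr9:114401076-114474898, plus strand), lysosomal beta-galactosidase, whose activity is a widely used stain for senescent cells, was 23.5, 8.61, 18.8 and 4.76 FPKM (-1.57 ± 0.16, adjusted p = 0.0187). Kidins220 (ENSMUSG00000036333, chr12:24974925-25063152, plus strand), a membrane scaffold of neurotrophin receptors, was 16.2, 4.22, 8.62 and 1.19 FPKM (-1.92 ± 0.16, adjusted p = 0.0167). Gtf2i (ENSMUSG00000060261, chr5:134237834-134314760, minus strand), the transcription factor TFII-I, was 16.0, 4.95, 13.9 and 5.02 FPKM (-1.41 ± 0.14, adjusted p = 0.0179). These 3 fell without overlap. Hnrnpa3 (ENSMUSG00000059005, chr2:75659261-75669407, plus strand), an RNA-binding protein, was 151, 63.8, 155 and 44.8 FPKM (-1.50 ± 0.16, adjusted p = 0.0195). Asph (ENSMUSG00000028207, chr4:9448069-9669344, minus strand), aspartate beta-hydroxylase, was 14.0, 4.18, 4.22 and 1.23 FPKM (-1.38 ± 0.15, adjusted p = 0.0198). Asph in CT26_102_R matched the untreated CT26_CTL, so its groups came within 0.05 FPKM of each other, while the within-pair falls were alike.

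**Figure D2:**
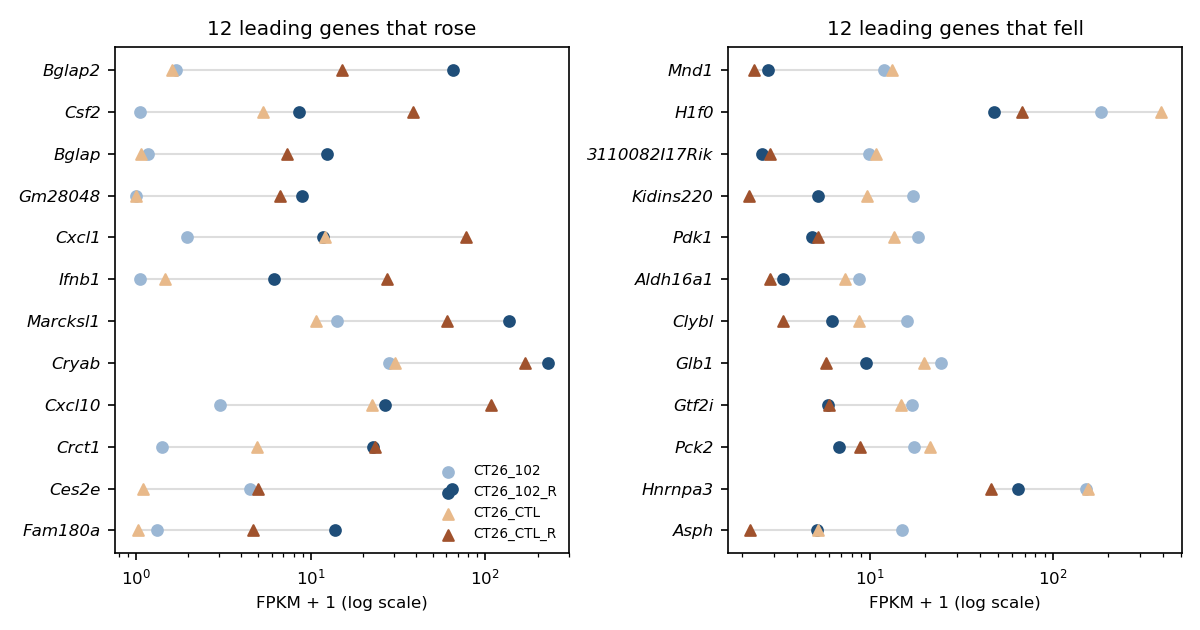
FPKM + 1 on a log axis in each of the 4 libraries for the 12 leading genes per direction; circles are stem CT26_102, triangles stem CT26_CTL, dark symbols carry the suffix R. In each row the dark symbol of a shape lies right of its pale partner on the left panel and left of it on the right panel; Csf2, Cxcl1, Cxcl10 and Ifnb1 also differ between stems.

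Promoters are shown for 3 of the leading genes per direction. They are the first whose window held a searched motif other than the common CCAAT box and hypoxia core. Windows are RefSeq promoters (GRCm38.p6), 250 bases before to 50 after the annotated start, printed 5′ to 3′ on the gene's strand. Capitals mark the matches named after each gene, and copies of the CCAAT box and the hypoxia core are left in lower case. The RefSeq start of Csf2 lies 232 bases from the GENCODE gene start.
Csf2, chr11:54249850-54250149, minus strand, p53 decamer site: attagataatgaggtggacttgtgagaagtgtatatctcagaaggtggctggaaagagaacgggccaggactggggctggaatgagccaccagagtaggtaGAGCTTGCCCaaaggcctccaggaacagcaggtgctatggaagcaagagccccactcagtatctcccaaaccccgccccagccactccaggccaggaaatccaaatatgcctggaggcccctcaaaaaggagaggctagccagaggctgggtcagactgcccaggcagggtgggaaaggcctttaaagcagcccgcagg
Bglap, chr3:88384417-88384716, minus strand, TATA box and p53 decamer site: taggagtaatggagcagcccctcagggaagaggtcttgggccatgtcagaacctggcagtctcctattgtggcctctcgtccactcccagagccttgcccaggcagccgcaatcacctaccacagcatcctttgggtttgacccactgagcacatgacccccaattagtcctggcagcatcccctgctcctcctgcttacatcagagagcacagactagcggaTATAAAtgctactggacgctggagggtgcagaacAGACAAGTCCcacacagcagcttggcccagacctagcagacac
Cxcl1, chr5:90890995-90891294, plus strand, a kappa B site on each strand: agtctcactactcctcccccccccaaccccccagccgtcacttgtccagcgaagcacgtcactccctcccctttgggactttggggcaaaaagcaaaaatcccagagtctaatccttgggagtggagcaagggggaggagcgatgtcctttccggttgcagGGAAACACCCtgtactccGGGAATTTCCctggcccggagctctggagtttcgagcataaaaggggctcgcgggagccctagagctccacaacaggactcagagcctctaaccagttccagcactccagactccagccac
Kidins220, chr12:24974682-24974981, plus strand, cell cycle homology region: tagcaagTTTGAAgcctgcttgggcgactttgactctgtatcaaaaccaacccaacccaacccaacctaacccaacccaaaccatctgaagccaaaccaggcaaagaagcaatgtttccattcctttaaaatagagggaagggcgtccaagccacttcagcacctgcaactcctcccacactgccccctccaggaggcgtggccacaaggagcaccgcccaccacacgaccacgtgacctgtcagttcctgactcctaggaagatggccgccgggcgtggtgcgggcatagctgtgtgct
Glb1, chr9:114400828-114401127, plus strand, AP-1 site: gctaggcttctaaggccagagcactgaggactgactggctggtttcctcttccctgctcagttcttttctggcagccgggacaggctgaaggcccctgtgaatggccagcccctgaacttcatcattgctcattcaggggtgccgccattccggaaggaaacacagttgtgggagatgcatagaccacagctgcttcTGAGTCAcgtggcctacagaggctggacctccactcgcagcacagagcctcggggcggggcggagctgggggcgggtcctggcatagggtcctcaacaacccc
Pck2, chr14:55540016-55540315, plus strand, cell cycle homology region on the other strand: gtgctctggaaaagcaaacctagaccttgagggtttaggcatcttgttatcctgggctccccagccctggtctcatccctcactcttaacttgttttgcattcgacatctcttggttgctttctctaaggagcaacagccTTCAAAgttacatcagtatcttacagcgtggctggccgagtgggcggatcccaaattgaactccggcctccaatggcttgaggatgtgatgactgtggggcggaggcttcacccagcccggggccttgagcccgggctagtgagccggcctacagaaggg
A match of letters is a description and not a binding site. Both strands were searched. AP-1 stands for TGANTCA with any middle base, so the matches include letters with A or T there, which are not the usual AP-1 site. The cell cycle homology region stands for TTTGAA, an element of promoters active before mitosis. The TATA box was searched as TATAAA. A further element bound by NF-Y was searched as CCAAT. The core hypoxia response element was searched by its core, ACGTG, which other elements share. The cAMP response element stands for TGACGTCA, which does not hold the AP-1 letters. The kappa B site, the interferon response element, the NRF1 site and the p53 decamer site were searched too. The p53 decamer site is a single decamer and only a part of a full p53 element.

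The AP-1 letters were found in 46 of 585 matched promoters of genes that rose (7.86%), in 12 of 399 of genes that fell (3.01%) and in 387 of 8273 of all tested genes (4.68%). Among genes over 2 times higher in both pairs they were in 20 of 132 (15.2%), and among those over 2 times lower in 1 of 41 (2.44%). Of all promoters in that RefSeq set, 7.08% held them. The shares were not tested. The letters TATAAA followed a similar order, in 22 of 132 promoters of genes over 2 times higher (16.7%), 0 of 41 of genes over 2 times lower, and 6.47% of tested genes. The interferon response element was in 10 of the 132 (7.58%) and 0 of the 41, against 3.15% of tested genes, and the kappa B letters in 6 (4.55%) and 1 (2.44%), against 1.67%. The p53 decamer site was in 16 of the 132 (12.1%) and 1 of the 41 (2.44%), against 6.62%. Those genes include p53 targets. Outside the p53 and mitosis lists it was in 49 of 538 risers (9.11%) and 28 of 368 fallers (7.61%). The cell cycle homology region showed the opposite order, in 17 of 132 (12.9%) and 12 of 41 (29.3%), against 11.7%. Among fallers outside the p53 and mitosis lists it was in 49 of 368 (13.3%). CCAAT was in 47.0% and 48.8%, against 39.9% of tested genes, and the hypoxia core in 22.0% and 36.6%, against 27.0%. The cAMP element was in 4.55% and 2.44%, against 3.43%, and the NRF1 site in 0 of 132 and 0 of 41, against 2.39%.

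AP-1 windows of genes over 2 times higher in both pairs are printed with 10 bases on each side, since they show where the TGANTCA letters lie. Windows of 11 of the 20 such genes are given, chosen after their values were seen, to keep the display short. Each is on the gene's strand with the motif in capitals. The matches of Serpinb2, Ifit3b and Ifit3 have A or T as the middle base and are not the usual AP-1 site.
Cxcl10, chr5:92348947-92348973, minus strand: ggagccttgcTGAGTCAtctccaaagt
Fam180a, chr6:35326173-35326199, minus strand: acatgccccgTGAGTCActccagatgt
Cgref1, chr5:30945644-30945670, minus strand: tgcctccatcTGAGTCAcagtgacaca
Cd68, chr11:69666303-69666329, minus strand, upstream: aagttccgtgTGAGTCAgctgcctcat
Cd68, chr11:69666178-69666204, minus strand, downstream: ctgaggtgtcTGAGTCAggtttggggt
Procr, chr2:155751053-155751079, plus strand: cccaccccccTGACTCAgcggcgacct
Serpinb2, chr1:107511319-107511345, plus strand: agtaaaatgtTGAATCAtacaaagaat
Ifit3b, chr19:34607859-34607885, plus strand: gagcaccagcTGATTCAtccccccccc
Ifit3, chr19:34583463-34583489, plus strand: gagcaccagcTGATTCAcccccccccc
Osgin1, chr8:119437040-119437066, plus strand: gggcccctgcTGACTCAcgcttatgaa
Srp14, chr2:118479900-118479926, minus strand: atggggaaagTGAGTCAgtggactctt
Ecm1, chr3:95739617-95739643, minus strand: cagcagggacTGAGTCAtggcaggaaa
Cd68, which encodes a lysosomal protein of macrophages that other cells also make, held the motif at positions -149 and -24 from the start. It was 8.49, 63.9, 28.3 and 86.4 FPKM. Procr, the endothelial protein C receptor, was 23.3, 105, 19.4 and 58.8 FPKM. Cgref1, a secreted EF-hand growth regulator, was 1.74, 9.13, 0.535 and 4.38 FPKM. Srp14, a subunit of the signal recognition particle, was 33.8, 83.6, 49.9 and 116 FPKM. Cd68, Procr, Cgref1 and Srp14 rose in both pairs. The windows of the neighbours Ifit3 and Ifit3b are nearly the same, as these are gene copies that may share reads.

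The lists of other gene groups show which parts of the cell moved with the suffix. Each list is described by the number of its tested members that rose or fell, to be read against 7.57% and 5.32% of all tested genes, and by its median log2 difference. No list was tested as a set. Of the tested genes, 9547 were in none of the 65 lists, and 706 of these rose and 496 fell.

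**Figure D3:**
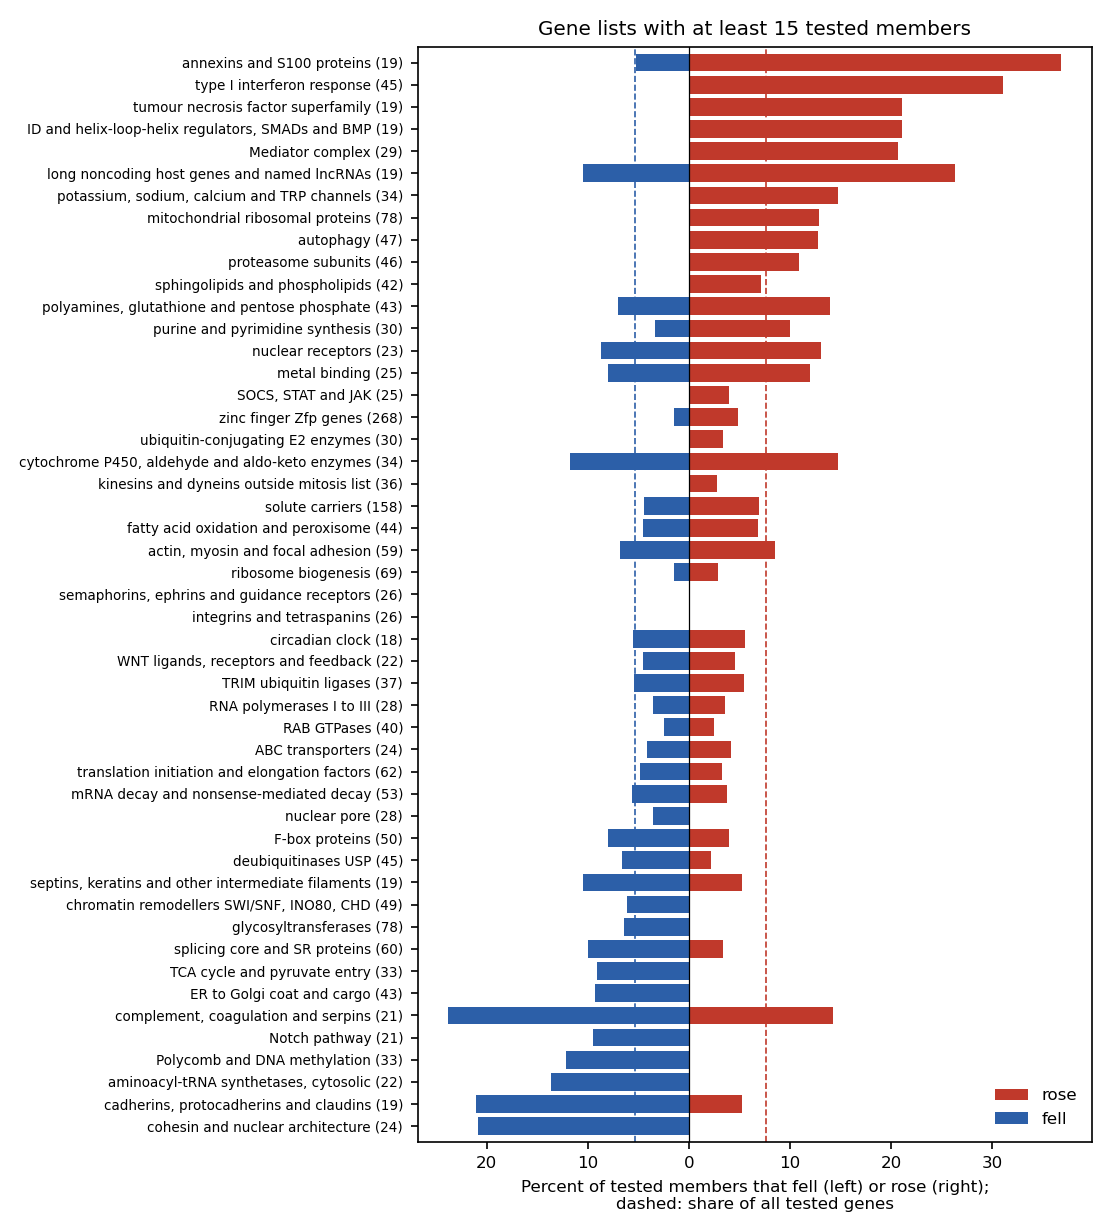
Share of tested members that fell (bars to the left, in percent) or rose (to the right) for lists with at least 15 tested members (number in parentheses), without the p53, mitosis and marker lists; dashed lines are the shares of all tested genes, 5.32% and 7.57%. Annexins and S100 proteins and the interferon response lie at the top, cohesin and nuclear architecture at the bottom.

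Among regulators of chromatin and transcription, 6 Mediator genes rose and 5 genes of cohesin and nuclear architecture fell. Mediator links transcription factors to RNA polymerase II. Of its 29 tested subunits, 6 rose and none fell (20.7%, median 0.20), though 1 and 2 fell under upper-quartile and equal-sum scaling. Med6, in the head module, was 13.3, 27.8, 11.9 and 26.1 FPKM and rose by 1.04 ± 0.12. Med10, in the middle module, was 16.1, 37.5, 47.4 and 73.6 FPKM (0.90 ± 0.17). Med29 and Med19 rose by 0.83 and 0.73.

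Cohesin holds sister chromatids together and, with CTCF, folds chromatin into loops. Of 24 cohesin and nuclear architecture genes, 5 fell and none rose (20.8%, median -0.42), and 18 were lower in both pairs. Ctcf was 14.5, 7.57, 12.4 and 6.67 FPKM, a log2 difference of -0.83 ± 0.13. Rad21, the cleavable cohesin subunit, was 68.8, 38.7, 80.5 and 46.8 FPKM (-0.79 ± 0.11). The nuclear envelope genes Tmpo (-0.90 ± 0.15) and Lmnb2 (-0.75 ± 0.14) fell as well. The count became 9 under upper-quartile and under equal-sum scaling.

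Polycomb and DNA methylation genes, which keep genes silent, included 4 of 33 that fell and none that rose (12.1%, median -0.32). Dnmt1, the maintenance DNA methyltransferase, was 39.2, 21.4, 21.9 and 12.5 FPKM (-0.80 ± 0.12). Its partner Uhrf1 was 50.1, 24.9, 44.7 and 29.2 FPKM (-0.79 ± 0.15). Suz12, a core subunit of Polycomb complex PRC2, was 8.92, 4.23, 15.4 and 2.06 FPKM (-1.67 ± 0.36), with the larger fall in stem CT26_CTL. The counts rose to 11 and 8 under upper-quartile and equal-sum scaling. They dropped to 3 with the length trend removed and to 2 without the variance trend. With 0.1 or 0.5 instead of 1 added to FPKM they were 2 as well. Of 49 remodeller genes 3 fell (6.12%, near the share of all genes): Arid2, Smarcc2 and Pbrm1, which encode subunits of SWI/SNF complexes, by -0.73, -0.71 and -0.65.

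Zinc finger Zfp genes had few calls, 13 rising (4.85%) and 4 falling (1.49%) of 268. Zfp750, a regulator of epidermal differentiation, was 0.0285, 3.24, 0.0117 and 3.36 FPKM (2.08 ± 0.15) and passed the filter only through the suffix R libraries. Its whole span lies within Tbcd on the other strand, so its reads cannot be told from those of Tbcd unless strand was used. Zfp36l1, which directs decay of AU-rich transcripts, was 14.1, 42.4, 10.7 and 24.6 FPKM (1.33 ± 0.15). Of 23 nuclear receptors 3 rose and 2 fell. Nr1d1, the clock repressor REV-ERB alpha, was 8.83, 37.5, 16.5 and 63.5 FPKM (1.93 ± 0.12), and the bile acid receptor Nr1h4 was 1.03, 4.73, 0.799 and 2.04 FPKM (1.13 ± 0.22). The COUP factors Nr2f1 and Nr2f2 fell by -0.96 ± 0.15 and -0.98 ± 0.18. Among 18 clock genes Nr1d1 rose and Bhlhe40, at 18.9, 8.53, 31.4 and 19.4 FPKM, fell. None of 11 homeobox cluster genes passed, the most abundant being Hoxc6 at 18.5, 21.1, 15 and 18.7 FPKM.

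Genes of RNA and protein synthesis were called in both directions. Mitochondrial ribosomal proteins, encoded in the nucleus, included 10 of 78 that rose and none that fell (12.8%, median 0.25), and 58 were higher in both pairs. Mrps18a was 11.6, 21.9, 17.1 and 33.5 FPKM (0.90 ± 0.12), Mrps18b 31.9, 62.3, 39.8 and 64.9 (0.82 ± 0.13), and Mrps18c 19.5, 40.0, 34.8 and 56.0 (0.84 ± 0.14). These 3 genes share the Mrps18 name, and all rose. With the length trend removed 10 members rose too, with a median of 0.17. Of 22 cytosolic aminoacyl-tRNA synthetases, which load tRNAs with amino acids, 3 fell and none rose (13.6%, median -0.14). Vars was 46.2, 22.3, 50.8 and 24.2 FPKM (-1.03 ± 0.12), and Iars and Dars fell by -0.73 and -0.72. They were 6 under upper-quartile scaling and 1 with the length trend removed.

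Of 60 splicing genes, 6 fell and 2 rose (10.0% and 3.33%). Srsf5 was 60.0, 33.1, 47.2 and 28.5 FPKM and Srsf1 18.1, 10.4, 12.3 and 7.08, both SR proteins that fell (-0.78 ± 0.12 and -0.73 ± 0.13). Hnrnpc, which binds nascent transcripts, rose by 0.79 ± 0.15. Translation factors were near the background, with 2 rising and 3 falling of 62. Eif4h, a helper of the eIF4A helicase, was 42.3, 81.3, 50.8 and 107 FPKM (0.99 ± 0.11), and Eif4g2 fell by -0.70 ± 0.12. Of 69 ribosome biogenesis genes 2 rose and 1 fell (0 and 1 with equal sums), the last being the nucleolar protein Npm1 at 576, 366, 543 and 337 FPKM (-0.67 ± 0.08). Both Npm1 values with the suffix lay well below both without it.

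Calls among proteasome and autophagy genes were all rises. The proteasome degrades tagged proteins, and 5 of its 46 tested subunits and regulators rose while none fell (10.9%, median 0.28). Psme2, of the interferon-induced activator PA28, was 54.7, 94.3, 83.7 and 129 FPKM (0.70 ± 0.11). The ATPase subunits Psmc3 and Psmc1 rose by 0.66 ± 0.11 and 0.58 ± 0.10, and the chaperone Psmd5 by 0.63 ± 0.13. With equal sums, and with the length trend removed, 3 passed. Autophagy genes showed the same side, 6 rising and none falling of 47 (12.8%, median 0.27). Atg9b, a lipid-moving membrane protein, was 25.6, 55.5, 59.9 and 136 FPKM (1.13 ± 0.11). The ATG8-family genes Map1lc3a and Gabarapl2, whose products coat autophagosomes, rose by 0.98 ± 0.16 and 0.97 ± 0.13, and Gabarapl2 was 14.6, 32.3, 21.6 and 39.5 FPKM. Atg14, a subunit of the kinase complex that starts autophagosomes, rose by 0.87 ± 0.14.

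Of 45 USP deubiquitinases 3 fell and 1 rose. Usp7, which removes ubiquitin from MDM2 and p53, was 18, 9.18, 13.8 and 5.72 FPKM (-1.02 ± 0.14). F-box genes, adaptors of ubiquitin ligases, had 2 rising and 4 falling of 50. Outside the mitosis and p53 lists, which hold Fbxo5 and Fbxw7, 1 rose and 3 fell of 48. Fbxo5, the EMI1 inhibitor of the anaphase-promoting complex, fell from 20.9 to 10.2 and from 24.3 to 9.91 FPKM. Fbxw7, a tumour suppressor that targets cyclin E and MYC, was 1.68, 4.66, 1.15 and 2.86 FPKM (0.96 ± 0.15). TRIM ligases had 2 in each direction of 37, with Trim35 (-0.88) and Trim37 (-0.80) falling. The coats that carry cargo between endoplasmic reticulum and Golgi had 4 of 43 falling and none rising (9.30%, median -0.16). Sec24d, a cargo adaptor of COPII, was 15, 5.00, 10.8 and 5.09 FPKM (-1.19 ± 0.17), Copg2 of the COPI coat fell by -0.95 ± 0.13, and the cargo receptors Tmed3 and Tmed2 by -0.73 and -0.50. Their count was 7 under upper-quartile and equal-sum scaling and 4 under median-of-ratios scaling.

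Cytokine receptor and BMP genes followed. Of 19 tumour necrosis factor superfamily genes 4 rose and none fell (21.1%, median 0.45), and 16 were higher in both pairs. Tnfrsf18, the costimulatory receptor GITR, was 0.149, 4.09, 0.174 and 1.81 FPKM (1.70 ± 0.25) and passed the filter only through the suffix R libraries. Traf4, an adaptor protein, was 13.3, 29.8, 8.80 and 17.1 FPKM (1.0 ± 0.13), the receptor Relt rose by 0.82 ± 0.14 and Traf1 by 0.74 ± 0.15. Of 19 genes of the ID, SMAD and BMP list 4 rose and none fell (21.1%, median 0.15). Id3, an inhibitor of helix-loop-helix factors, was 2.31, 10.2, 8.88 and 21.3 FPKM (1.47 ± 0.18). Nbl1 and Fst, secreted antagonists of BMP and activin, rose by 1.30 ± 0.16 and 1.12 ± 0.17, and the receptor Acvrl1 by 0.79 ± 0.14.

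Few WNT and Notch genes were called. Of 22 WNT genes, the ligand Wnt10a rose (6.13, 16.1, 10.3 and 25 FPKM, 1.23 ± 0.13) and Apc, the scaffold that destroys beta-catenin, fell (2.66, 0.656, 3.02 and 0.526 FPKM, -1.27 ± 0.16). Apc passed the filter only through the libraries without the suffix. Of 21 Notch genes 2 fell, the protease Adam10 at 11.7, 6.29, 9.01 and 1.48 FPKM and the DNA-binding factor Rbpj by -0.71 ± 0.14. Neither passed with the length trend removed. Boc, a Hedgehog co-receptor, rose from 4.33 to 11.9 and from 8.69 to 16.3 FPKM. Semaphorin and guidance genes (26), integrins and tetraspanins (26) and cyclic nucleotide genes (11) held no gene that passed, although 2 guidance genes fell under upper-quartile and equal-sum scaling. The integrin Itgb7 was 149, 178, 234 and 245 FPKM and the kinase subunit Prkar1a 52.5, 51.6, 41.1 and 41.0.

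Membrane transport was mixed. Of 34 tested ion channel genes 5 rose and none fell (14.7%), while 153 of 190 channel genes stayed under 1 FPKM in every library. P2rx7, the ATP-gated channel, was 1.95, 12.3, 3.48 and 6.86 FPKM (1.49 ± 0.33), and Orai2, a store-operated calcium channel, was 4.25, 13.1, 5.55 and 11.1 (1.16 ± 0.18). The potassium channel Kcnk2 rose by 0.81 ± 0.14. Of 158 solute carriers 11 rose and 7 fell (6.96% and 4.43%), close to the shares of all genes. Slc25a25, a calcium-regulated carrier of ATP into mitochondria, was 1.39, 9.77, 2.75 and 9.17 FPKM (1.81 ± 0.21). Slc1a5, the glutamine transporter ASCT2, was 62.8, 34.8, 76.1 and 26.9 FPKM (-1.15 ± 0.18). For both genes the suffix R libraries lay on 1 side of the others.

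In central metabolism the tricarboxylic acid cycle list held 3 genes that fell and none that rose of 33 (9.09%, median -0.21), and 21 were lower in both pairs. Idh2, mitochondrial isocitrate dehydrogenase, was 66.4, 24.7, 51.9 and 27.8 FPKM (-1.13 ± 0.16), and its cytosolic form Idh1 was 25.9, 12.8, 12.7 and 4.62 (-1.12 ± 0.15). Suclg2, a subunit of succinyl-CoA synthetase, fell by -0.88 ± 0.13. Idh2 levels did not overlap, whereas CT26_102_R matched CT26_CTL for Idh1. The count was 6 under upper-quartile and equal-sum scaling and 3 under median-of-ratios scaling. Nucleotide synthesis was divided, with the salvage genes Cda, Uck1 and Upp1 rising (0.88, 0.79 and 0.68) and Adss, adenylosuccinate synthetase, falling (43.5, 21.1, 59.1 and 24.6 FPKM, -1.12 ± 0.13) of 30. With equal sums 2 of them rose and 3 fell.

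Of 43 genes of polyamines, glutathione and the pentose phosphate route, 6 rose and 3 fell. Without Gss, which is also in the p53 list, 5 rose. Gss, glutathione synthetase, was 5.13, 14.3, 5.37 and 16.7 FPKM (1.39 ± 0.13), Txnip, which binds thioredoxin, 56.4, 198, 121 and 229 (1.35 ± 0.22), and the polyamine acetylase Sat1 14.7, 40.5, 56.2 and 89.8 (1.04 ± 0.20). The suffix R levels were higher in each pair. Of 42 lipid genes Lpin1, Plin2 and Smpd1 rose by 0.92, 0.91 and 0.66 and none fell, but 1 rose and 2 fell with equal sums and with the length trend removed, and 3 rose and 2 fell with upper-quartile scaling. Of 44 genes of fatty acid oxidation and peroxisomes, 3 rose and 2 fell, against 1 and 4 with equal sums and 2 and 5 with upper-quartile scaling. Pex6 rose by 0.72 while Cpt1a, the gate to mitochondrial oxidation, and Abcd3 fell by -0.63 and -0.73. Glycosyltransferases had 5 of 78 falling and none rising (6.41%), among them Man2a1 of N-glycan processing (13.6, 6.41, 6.97 and 3.30 FPKM, -0.94 ± 0.13). The count was 9 under upper-quartile and equal-sum scaling and 3 with the length trend removed. B3gnt2, also in this list, was 6.55, 2.72, 9.73 and 4.55 FPKM. It overlaps Gm28048, which rose, on the same strand, so their reads cannot be separated and its lower values are uncertain. Cytochrome P450, aldehyde and aldo-keto enzymes had 5 rising and 4 falling of 34. Aldh4a1, of proline breakdown, was 1.28, 6.39, 0.452 and 3.31 FPKM (1.63 ± 0.15). Its whole span is shared on the same strand with Gm21969 (0.105, 2.01, 0.314 and 0.160 FPKM), so the split of reads between them is uncertain. The copper chaperone Atox1, in a metal list with 3 rising and 2 falling of 25, was 73.0, 144, 75.6 and 123 FPKM (0.84 ± 0.12).

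At the cell surface and in the cytoskeleton, annexin and S100 genes that passed were mostly higher and cadherin-type genes mostly lower. Annexins and S100 proteins had 7 rising and 1 falling of 19 (36.8% and 5.26%, median 0.35). Anxa8 was 72.0, 202, 26 and 109 FPKM (1.75 ± 0.16). S100a7a, a psoriasin-type gene, was 70.1, 225, 75.7 and 221 FPKM (1.60 ± 0.11), nearly equal in both pairs. S100a1 and S100a13 rose by 0.84 and 0.75. Of 19 cadherin, protocadherin and claudin genes 4 fell and 1 rose (21.1% and 5.26%, median -0.34), and 117 of the 143 in the file stayed under 1 FPKM. The protocadherins Pcdh18 and Pcdh19 fell by -0.83 and -0.81, and Tjp1, the junction scaffold ZO-1, was 31.5, 17.5, 13.8 and 8.23 FPKM (-0.75 ± 0.13). Jup, plakoglobin, went the other way at 6.16, 12.5, 2.96 and 7.43 FPKM (1.0 ± 0.14).

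Of 59 actin, myosin and adhesion genes 5 rose and 4 fell, and with equal sums 2 rose and 5 fell. Ankrd1, a stretch-responsive gene, was 12.2, 36.8, 42.0 and 65.4 FPKM (1.07 ± 0.23), Fhl2 and Pdlim1 rose by 0.86 and 0.73, and gamma-actin Actg1 was 283, 160, 198 and 144 (-0.64 ± 0.13). Des, desmin of muscle, was 1.31, 15.6, 0.965 and 4.75 FPKM (2.20 ± 0.32), whereas Vim fell by -0.45 ± 0.09. Complement, coagulation and serpin genes had 3 rising and 5 falling of 21 (14.3% and 23.8%). The median of that list was 0.32, and 9 members were higher and 7 lower in both pairs. The order of its calls turned to 3 rising and 1 falling with a pseudocount of 0.5, and to 3 and 2 with a pseudocount of 0.1 or without the variance trend. Serpinb2, a serpin that inhibits plasminogen activators, was 0.0981, 3.52, 0.249 and 2.20 FPKM (1.70 ± 0.22) and passed the filter only through the suffix R libraries. C1rl, a complement protease, fell by -0.82 ± 0.14. Among growth factor binding genes, Ctgf rose (23.6, 43.6, 12.8 and 24.2 FPKM, 0.86 ± 0.12) and Igfbp4 fell (26.3, 14.6, 36.6 and 12.3, -1.16 ± 0.20). The other lists had few calls, and counts this small moved with the scaling. Nuclear pore genes had 1 falling of 28 (5 under upper-quartile and equal-sum scaling), RNA polymerases 1 in each direction of 28, mRNA decay genes 2 rising and 3 falling of 53, and RAB GTPases 1 each of 40. E2 enzymes had 1 rising of 30 and SOCS, STAT and JAK genes 1 rising of 25. ABC transporters had 1 each of 24, and the riser is in the p53 list too. Motors outside the mitosis list had 1 rising of 36, septins, keratins and related filaments 1 rising and 2 falling of 19, and G protein regulators 1 rising of 12. Of 6 tested replicative histone genes 1 rose, and none of 4 imprinted growth genes, 4 epithelial, 1 T and NK and 1 endothelial marker passed. Mesenchymal markers had 2 of 16 falling, Vim and Col1a2, the latter at 108, 49.6, 84.6 and 57.8 FPKM (-0.82 ± 0.17), and neither passed with the length trend removed.

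Genes of nucleic acid defence rose without exception among those that passed. Of 45 interferon response genes 14 rose and none fell (31.1%, median 0.25), and with the length trend removed 10 rose. The other 31 did not pass. Of the 45, 28 were higher and 10 lower in both pairs. Mx2, an antiviral GTPase, was 3.38, 12.5, 17 and 53.5 FPKM (1.61 ± 0.13). Rsad2, viperin, was 4.51, 15, 21.5 and 38.3 FPKM (1.17 ± 0.21). For both, CT26_102_R stayed below the untreated CT26_CTL, so the groups overlapped and only the pairing separates them. Of 14 Schlafen, IFI200 and ZBP genes 4 rose (28.6%, median 0.41). Zbp1, a sensor of left-handed nucleic acids, was 6.69, 14.3, 24.7 and 56.2 FPKM (1.07 ± 0.13), and Aim2, a DNA sensor of inflammasomes, was 6.24, 21.6, 17 and 28.5 (1.18 ± 0.24). Leukocyte transcripts were checked beside these. Of 20 myeloid and B cell markers 7 were tested, and Cd68 and Cd14 rose. Their summed level was 46.1, 178, 75.1 and 132 FPKM, mostly Cd68, Cd14 and Lyz2, while Ms4a1 and S100a9 were at 0 and Adgre1, of macrophages, did not exceed 0.132 FPKM. Of 19 T and NK markers 10 were at 0 in all libraries, and their sum lay between 1.36 and 2.27 FPKM.

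Long noncoding genes had mostly rises among their calls, and the difference from coding genes was not tested. Of 201 tested lincRNA genes 41 rose and 7 fell (20.4% and 3.48%), against 745 and 500 of 10251 protein-coding genes (7.27% and 4.88%). With the length trend removed they were 30 and 9. Among the named ones, the snoRNA host Snhg15 was 10.3, 28.5, 14.2 and 41.0 FPKM (1.43 ± 0.12) and Snhg12 4.87, 23.2, 10.7 and 19.5 (1.43 ± 0.30). Pvt1, next to Myc and also in the p53 list, was 1.35, 4.33, 1.31 and 3.91 FPKM (1.14 ± 0.14). Mir155hg, the precursor of miR-155, fell from 1.75 to a listed 0 and from 2.91 to 0.429 FPKM (-1.46 ± 0.15). Mir155hg passed the filter only through the libraries without the suffix. Of 99 small nucleolar RNAs 18 fell (18.2%) and 3 rose, with 26 falling under upper-quartile scaling and 13 without the variance trend. Snord57 was 18.4, 0.0385, 12.2 and 0.0282 FPKM. These genes have a median length of 109 bases, at which FPKM is imprecise.

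Among the most abundant transcripts, differences were large in FPKM, and some of them were small as ratios. Eef1a1, elongation factor 1 alpha, was 3400, 2273, 2981 and 2115 FPKM (-0.54 ± 0.06). Its partner Eef2 was 960, 566, 873 and 617 (-0.63 ± 0.10). Tuba1b, an alpha-tubulin, was 812, 382, 774 and 374 FPKM (-1.07 ± 0.08). Ptma, prothymosin alpha of dividing cells, was 1313, 525, 606 and 385 (-0.99 ± 0.17). All 4 fell, with no overlap between the groups. The mitochondrially encoded mt-Co1 was 8169, 9574, 6947 and 8025 FPKM (0.22 ± 0.05) and mt-Co3 was 3215, 4356, 2744 and 3847 (0.46 ± 0.06). Both are subunits of cytochrome c oxidase and rose, though the groups overlapped for mt-Co1. Their rise does not stand for all mitochondrially encoded genes. The neighbour of mt-Co3, mt-Atp6, was 4911, 5405, 4108 and 883 FPKM, so its pairs moved in opposite directions. Why mt-Atp6 differed was not tested. Gm28437, a nuclear copy, had nearly the values of mt-Co3 and shares its reads. Gm29216, another mitochondrial pseudogene, was 3913, 5982, 4623 and 6693 FPKM. Gm22133 lies inside Ftl1, a ferritin gene that was 2517, 3235, 2650 and 3496 FPKM, and their reads cannot be told apart. Gm15459, a processed pseudogene, fell from 640 to 213 and from 454 to 194.

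Shorter genes tended to be higher with suffix R and longer genes lower. Over 5 classes of protein-coding genes by exonic length the median log2 difference went from 0.19 (median length 1742 bases, 15.4% rose) through 0.06, -0.01 and -0.05 to -0.16 (median 9662 bases, 2.49% rose). The order was the same in each pair, from 0.24 to -0.15 in CT26_102 and from 0.16 to -0.15 in CT26_CTL. Genomic span, which includes introns, gave 0.16 for the shortest and -0.16 for the longest class. Span and length are linked, so span was split within 3 classes of length. In the shortest class the median went from 0.19 to 0.17 and 0.09 with growing span, in the middle class from 0.05 to 0.02 and -0.08, and in the longest from -0.03 to -0.14 and -0.19. Expression level changed too, from a median of 15.8 FPKM in the class shortest in both to 3.77 in the class longest in both. Its part was not tested. Medians by chromosome ranged only from -0.07 (X) to 0.05 (chromosome 5).

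**Figure D4:**
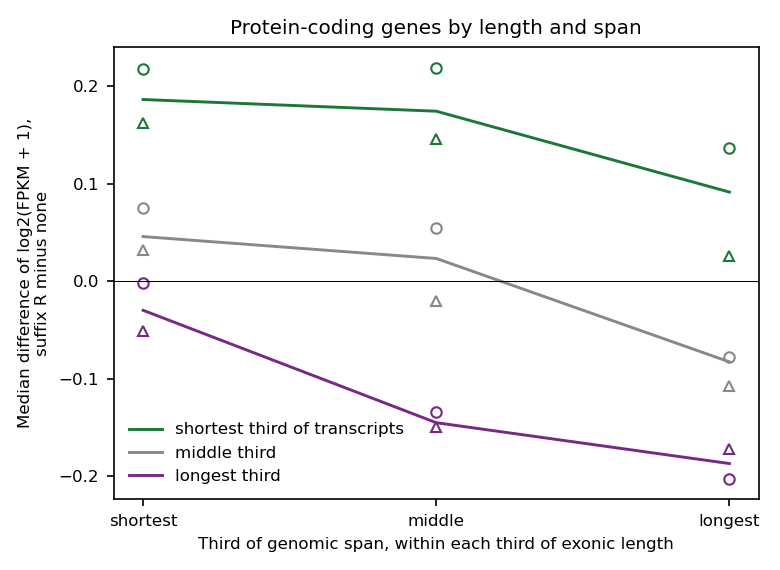
Median difference of log2(FPKM + 1), suffix R minus none, of protein-coding genes by class of genomic span (horizontal axis) within 3 classes of exonic length (colors); lines are the mean of both pairs, circles the pair CT26_102 and triangles the pair CT26_CTL. The shortest transcripts go from 0.19 to 0.09 and the longest from -0.03 to -0.19.

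Some risers were neighbours on the chromosome. In 8 places 3 tested protein-coding genes in a row all rose, and in none did 3 in a row fall. Genes of other types and untested genes between them were passed over. Of all tested protein-coding genes 7.27% rose and 4.88% fell. How many runs these shares alone would give was not worked out. The epidermal growth factor ligands Areg (3.05, 44.6, 23.9 and 96.5 FPKM), Ereg (13.8, 70.1, 31.1 and 70.2) and Btc (1.62, 3.31, 1.29 and 2.89) lie together at chr5:91074622-91402994. The guanylate-binding genes Gbp3, Gbp2b and Gbp2 (chr3:142560026-142638008) and the antiviral Oas1f, Oas1g and Oas1a (chr5:120847367-120907521) are 2 further runs, made of paralogs that may share reads. Gbp2b was 5.00, 11.4, 30.4 and 61.7 FPKM. Unrelated neighbours formed the others, such as Tmem150a, Rnf181 and Vamp5 (chr6:72355447-72380468), with Tmem150a at 10.1, 31.3, 6.91 and 14.9 FPKM. Gene models that overlap were not merged for this count.

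Few called genes were under 1 FPKM in both libraries of 1 group. Of the 905 genes that rose, 75 (45 protein-coding) were under 1 FPKM in both libraries without the suffix, Bglap2, Bglap, Ifnb1, Zfp750, Serpinb2, Tnfrsf18 and Fam180a among them. Of the 636 that fell, 34 (13 protein-coding) were under 1 FPKM in both suffix R libraries. All these risers and fallers passed the filter only through the libraries where they were high, so the filter fixed their direction. How many of all tested genes share this pattern was not counted. At the edge of the filter, Gm49768 just entered at 1.0001, 1.03, 0.254 and 0.246 FPKM, and Celf5 just missed it at 0.99995, 3.26, 0.164 and 0.758.

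For a small set the pairs moved in opposite directions. The 12 protein-coding genes with the largest opposed differences that reached 5 FPKM are a description, since a difference between 2 pairs leaves no residual for a test. Lyz2, the lysozyme of myeloid cells, rose in value in the pair CT26_102 and dropped in the pair CT26_CTL, at 15, 53.1, 13.1 and 4.36 FPKM. Its neighbour Lyz1 (1.87, 6.42, 2.60 and 0.584) and Tyrobp, an adaptor of myeloid receptors (4.92, 13.4, 5.09 and a listed 0), had the same pattern. Cd68 and Cd14, in contrast, were higher with the suffix in both pairs. The nuclear receptor Ppard was 1.81, 9.38, 6.10 and 2.32 FPKM. In the other direction, Bok, of the BCL2 family, was 23.1, 9.15, 9.91 and 26.1 FPKM, and Tmem184b 17, 7.28, 6.04 and 31.9.

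**Figure D5:**
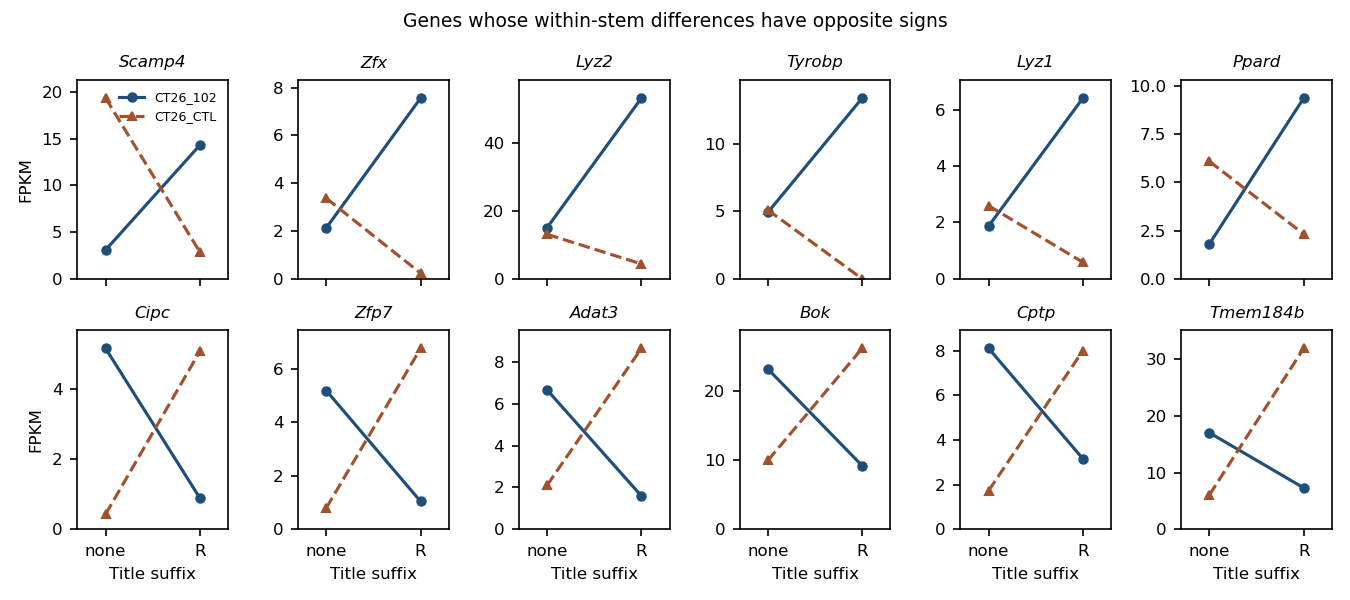
FPKM without and with the title suffix R for the 12 genes with opposed within-stem differences, 1 point per library; solid lines with circles join stem CT26_102 and dashed lines with triangles stem CT26_CTL. In the upper row CT26_102 climbs and CT26_CTL drops (Lyz2 from 15 to 53.1 and from 13.1 to 4.36 FPKM), and in the lower row the lines cross the other way.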

How the data were processed

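RNA-seq of 4 CT26 libraries was used. The labels name an RNeasy kit for RNA and a SMARTer mRNA-seq kit for libraries. The authors deposited FPKM per gene and library. The submitters' processing notes name GRCm38 and mm10, a pair of names for 1 assembly. The aligner, the quantifier and the use of strand were not given in the sources used here. No counts are in the file, so depth is unknown and no counting intervals are given.

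Groups follow the source labels and pairs the title stems, which the labels do not explain. Genes reaching an FPKM of 1 in 2 or more libraries entered the test, and log2(FPKM + 1) was fitted with limma 3.58.1 (R 4.3.3; stem and group as terms, eBayes with trend, two-sided, Benjamini-Hochberg over 11955 genes, threshold 0.05). The fit has 1 residual degree of freedom, and limma added 4.01 prior degrees. An exact permutation test of a single gene, 2 against 2, cannot reach 0.05 and was not run. The script was tested on simulated data. Tables and motif searches used Python 3.11.15.

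The members, the 65 lists and the rules were chosen with earlier results of these data known. Named genes were, per direction, the 12 protein-coding genes outside the p53 and mitosis lists that passed, reached 5 FPKM and had the largest smaller within-stem difference; up to 4 passing members per list by size of difference (the 2 most abundant where none passed); 6 genes per direction with opposed pairs; the 5 passing genes per direction with the largest FPKM change; and Fosl2 and Mdm2. Snord57 and genes named in neighbour runs and promoter windows were chosen after their values were seen. Positions are from GENCODE M21, which holds 55154 of the 55335 identifiers. RefSeq promoters (GRCm38.p6) matched 8273 of 9988 tested protein-coding genes on the chromosomes covered (82.8%), 80.9% of those that rose and 81.4% of those that fell. Alternatives were other scalings, pseudocounts, filters, the fit without the stem or without the trend, removal of the length trend, and leaving out each library. Some items that the rules name, 1 list among them, are not reported or plotted here.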

Additional observations from a re-analysis of the deposited data

Results flagged for a closer look

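For 12 genes the differences within the pairs had opposite signs, each pair being 1 library against 1. The difference between the pairs was not tested, since it leaves no residual. The value given last for each gene is the difference of CT26_102 minus that of CT26_CTL, in log2(FPKM + 1), with the pairs' FPKM as in the order used before.

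Higher with R in CT26_102 and lower in CT26_CTL were Scamp4, a secretory carrier membrane protein (3.09, 14.3, 19.4 and 2.87, difference 4.30), the X-linked zinc finger gene Zfx (2.13, 7.56, 3.36 and 0.233, 3.27) and Lyz2 (15, 53.1, 13.1 and 4.36, 3.15). So were Tyrobp (4.92, 13.4, 5.09 and 0, 3.89), Lyz1 (1.87, 6.42, 2.60 and 0.584, 2.55) and Ppard (1.81, 9.38, 6.10 and 2.32, 2.98). Lyz1 and Lyz2 are gene copies that may share reads.

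The opposite order was seen for Cipc, a CLOCK-interacting repressor (5.17, 0.888, 0.425 and 5.08, -3.80), Zfp7 (5.19, 1.04, 0.798 and 6.78, -3.72) and Adat3 (6.67, 1.59, 2.10 and 8.67, -3.21). It was seen too for Bok (23.1, 9.15, 9.91 and 26.1, -2.56), Cptp, a ceramide-1-phosphate transfer protein (8.12, 3.16, 1.73 and 8.02, -2.86), and Tmem184b (17, 7.28, 6.04 and 31.9, -3.35). The entry that the file calls Adat3 is Gm49322 in GENCODE M21 and lies within Scamp4 on the same strand, sharing 9763 of its 9764 bases. Its values mirror those of Scamp4, and reads of the 2 models cannot be told apart. Beside these values, the myeloid and B marker list summed to 46.1, 178, 75.1 and 132 FPKM, and its part in the Lyz2 and Tyrobp values was not tested.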

How the results depend on the processing

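The pairing comes from the title stems. With no replicate block, 0 genes rose and 1 fell, and with no filter on low values 0 and 0. Leaving out each library in turn, in fits that drop the stem and so mix stem with suffix, gave 0 to 9 rising and 1 to 3 falling genes. Falling genes were 958 with equal FPKM sums and 1011 with upper-quartile rescaling, where the median log2 difference over all tested genes was -0.0753 and -0.0458. Genes over 2 times apart with opposite signs were 9 when 1 FPKM was required in all libraries, 12 with 5 FPKM in 2 libraries and 44 with a pseudocount of 0.1. With that pseudocount 354 were over 2 times higher and 177 lower, and among protein-coding genes 52 were lower. Of the 212 named genes that passed, 190 passed with equal sums, 210 with upper-quartile and 207 with median-of-ratios rescaling, 177 with the length trend removed, 161 without the trend, 185 and 173 with pseudocounts of 0.1 and 0.5. None passed without the block or without the filter.

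Leaving out 1 library turned the sign of 10 named genes, whose log2 differences then ranged from -1.0221 to 1.5509 for Unc5b, -0.1883 to 0.1574 for Prkar1a, -0.2042 to 1.556 for Upp1, -1.7471 to 0.0800 for Pcdh18 and -0.1674 to 0.485 for Itgb7. The ranges were -0.1449 to 0.5916 for Cd9, -0.2494 to 2.4531 for Slfn2, -0.0017 to 2.579 for Ifit3, -0.1946 to 0.1017 for Lck and -0.1529 to 1.0094 for Eng. Of these, Upp1, Pcdh18, Slfn2 and Ifit3 turned without CT26_102, and Upp1 also without CT26_CTL_R (-0.0739). Prkar1a was 0.0026 with the length trend removed. The median changed sign in some setting for 27 of 65 lists, 21 of them with a median under 0.1 in size to begin with, such as nuclear receptors and polyamines. The other 6 were homeobox genes (0.2447 and 0.2458 with the stricter filters) and complement and serpin genes (-0.0401 with 5 FPKM in 2 libraries), and, without a filter, guidance genes (0.0036), ABC transporters (0.0026), septins and keratins (0.0189) and cadherins (0.0042). The stricter filters and the missing one test other sets of genes, and for the rest the cause was not tested. Depth cannot be read from the file, so limits for genes listed at 0 are not given.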

Other observations

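Some large single-library values stood outside the calls and were picked after seeing them. AY036118 was 546, 644 and 1559 FPKM in the first 3 libraries and 0.128 in CT26_CTL_R. Gm26619 was 165, 134 and 195 FPKM and was listed at 0 in CT26_CTL_R. Gm26712 was 0.116 FPKM in CT26_102 and 19.4, 31.7 and 28.7 in the others. Each rests on 1 library and did not pass.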
